A study of Mus musculus with 18 samples.

Results

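Lung endothelial cells, the cells that line blood and lymph vessels, were picked out of 6 mouse lung libraries by their transcripts. A kept cell entered where at least 2 of the 7 genes Cldn5, Cdh5, Tmem100, Calcrl, Ramp2, Egfl7 and Kdr had a unique molecular identifier (UMI, the tag that marks 1 captured transcript). The gate took 110 of 6105 kept lung cells (1.80%), 22 from tumour-bearing and 88 from healthy lungs. Female BALB/cJ mice had been inoculated with 2000000 4T1-tdTomato-luc2 cells, a labelled mouse mammary carcinoma line, in the fourth right mammary fat pad, and lungs were taken after 7, 14 or 21 days. Healthy mice of the same days and ages (9, 10 and 11 weeks) received no tumour cells. Biomaterial scaffolds and spleens, taken from mice of both statuses, completed the 18 Drop-seq libraries, in which a droplet pairs a cell with a barcoded bead. Each tissue, status and day had 1 library, the number of animals behind a library is not given in the labels, and no sort for endothelium is mentioned in them.

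In the mouse lung most endothelial cells form the alveolar capillaries, where gas is exchanged. Their capillary net is known to hold 2 cell kinds, the wide, Car4-high aerocytes that lie against the alveolar epithelium and the general capillary cells, marked by Gpihbp1 and Plvap, which are regarded as their progenitors. Arteries, veins and lymphatics carry smaller endothelial populations with markers of their own. Cldn5 is the endothelial tight junction claudin and Cdh5 is VE-cadherin of the adherens junction. Tmem100 is a membrane protein induced by BMP signals in vessels, and Calcrl with its partner Ramp2 forms the adrenomedullin receptor. Egfl7 is a secreted protein of endothelium, and Kdr is the main receptor through which endothelial cells answer VEGF. On build GRCm38.p6 the RefSeq genes lie at chr16:18776847-18778262 (Cldn5), chr8:104101613-104144504 (Cdh5), chr11:90030348-90036508 (Tmem100) and chr2:84330626-84425405 (Calcrl). Ramp2 lies at chr11:101246334-101248250, Egfl7 at chr2:26581083-26592682 and Kdr at chr5:75932827-75979072.

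Stretches before annotated transcript starts of gate genes are shown because these genes are read together in one cell, and because ETS factors such as Erg and Fli1, which bind at GGAA, are known regulators of endothelial genes. RefSeq promoters of build GRCm38.p6 were found for 4 of the 7 gate genes. Each line gives the 250 bases before the transcript start that the promoter table lists, 5' to 3' on the gene's own strand, with GGAA or its reverse complement TTCC in capitals.
Calcrl: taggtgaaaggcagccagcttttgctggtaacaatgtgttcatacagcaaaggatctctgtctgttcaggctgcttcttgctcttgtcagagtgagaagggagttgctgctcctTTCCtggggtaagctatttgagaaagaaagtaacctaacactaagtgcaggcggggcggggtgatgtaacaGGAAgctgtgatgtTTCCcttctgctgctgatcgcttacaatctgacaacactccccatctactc
Egfl7: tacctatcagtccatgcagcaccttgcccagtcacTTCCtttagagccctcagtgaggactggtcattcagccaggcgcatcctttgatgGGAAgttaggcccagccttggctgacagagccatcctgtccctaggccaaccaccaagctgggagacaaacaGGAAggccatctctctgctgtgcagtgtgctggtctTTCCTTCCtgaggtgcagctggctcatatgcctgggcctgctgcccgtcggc
Kdr: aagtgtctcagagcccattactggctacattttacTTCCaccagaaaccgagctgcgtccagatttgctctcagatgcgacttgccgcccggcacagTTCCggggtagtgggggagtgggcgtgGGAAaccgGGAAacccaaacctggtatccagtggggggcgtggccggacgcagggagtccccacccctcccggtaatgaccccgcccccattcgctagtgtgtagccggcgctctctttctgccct
Cldn5: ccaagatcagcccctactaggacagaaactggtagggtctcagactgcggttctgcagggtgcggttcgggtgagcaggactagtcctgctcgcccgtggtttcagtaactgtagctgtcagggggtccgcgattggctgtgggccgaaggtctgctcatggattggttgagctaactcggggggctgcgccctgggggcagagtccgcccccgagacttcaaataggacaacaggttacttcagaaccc
The windows lie at chr2:84425267-84425516 on the minus strand for Calcrl, chr2:26580833-26581082 on the plus strand for Egfl7, chr5:75978456-75978705 on the minus strand for Kdr and chr16:18776597-18776846 on the plus strand for Cldn5. The listed start lies at the end of the gene's annotated range for Egfl7 and Cldn5, but 139 bases inside it for Calcrl and 617 bases inside it for Kdr, so that the Kdr window is wholly and the Calcrl window partly within the gene. Calcrl held 3 GGAA words on both strands together, Egfl7 held 5, Kdr held 4 and Cldn5 held 0. Of 32851 promoter windows of the same length 93.4% held at least 1, with a median of 3 and quartiles of 2 and 4. The longer word CCGGAA stood in 1 of the 4 windows, that of Kdr, against 12.0% of all windows, on either strand; each CCGGAA also counts as a GGAA.

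Depth differed between the lung libraries. Totals ran from 623042 to 4283593 UMIs over 886 to 3415 barcodes, and gated cells had a median of 991 UMIs (range 266 to 13019) and 592 genes. Gated cells numbered 4, 6 and 12 in tumour-bearing lungs of days 7, 14 and 21, and 6, 66 and 16 in healthy lungs of those days. Their summed UMIs, against which raw UMI numbers below should be read, were 7946, 7292 and 17291 in tumour-bearing and 23745, 115449 and 8569 in healthy lungs. The healthy library of day 14 alone gave 64.0% of them. A barcode found in several libraries of a day was kept only where its UMIs reached 5 times those of the runner-up, which removed 30.5% of the filtered barcodes of tumour-bearing lung at day 21 and 77.2% of those of healthy lung at day 21, but only 1 gated barcode in all. In the other 4 libraries it removed 2.62% to 22.0%. None of the gated cells (0 of 110) shared its first 11 barcode bases with another kept barcode of its library.

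Endothelial genes led in most, not all, of the gated cells. In 91 of the 110 cells the gate genes and 30 further pan-endothelial genes together had more UMIs than any of 12 marker lists of other cell types; these cells are called endothelial-led below. The gate genes that chose the cells count towards that sum, and the lists of other cells are shorter, with 5 to 10 genes. With the 30 pan-endothelial genes alone 84 cells stood above every other list, 17 of tumour-bearing and 67 of healthy lungs, and 3 of the 110 cells had no UMI of these 30 genes. The gate alone was passed with 3 or more genes by 73 cells and with 5 or more by 48. The other 19 cells, 3 from tumour-bearing and 16 from healthy lungs, had at least 1 list of another cell type at or above their endothelial sum. Macrophage genes led in 7 of them, with a median of 3299 UMIs per cell, against 838 UMIs in the endothelial-led cells. Pan-leukocyte and neutrophil genes each led in 3, airway epithelial genes in 2, and B cell, T and NK cell, alveolar epithelial and fibroblast genes in 1 each. All of the macrophage-led cells came from healthy lung at day 14, where the macrophage list stood at 61.2 UMIs per 10000 in gated cells and 120 in other cells. Whether such barcodes hold a pair of cells was not tested, and no doublets were removed. Over all gated cells, 9 of 9 pan-leukocyte genes and 9 of 9 neutrophil genes were at least 2-fold lower per UMI than in other cells, while 8 of 10 alveolar epithelial, 8 of 9 fibroblast and 7 of 9 pericyte and smooth muscle genes were at least 2-fold higher. Such counts, here and below, rest on UMIs pooled over the 6 libraries, to which gated and other cells contributed unequally. The summed alveolar epithelial list was lower in gated than in other cells of healthy lung at day 21 (22.2 against 44.2 UMIs per 10000). It was also lower in tumour-bearing lung at day 14 (1.37 against 1.72), and higher in the other libraries. Of the 236 fibroblast UMIs in gated cells 130 were in 1 cell of healthy lung at day 7. Among all 18498 genes with a UMI, 25.5% were at least 2-fold higher and 46.6% at least 2-fold lower in gated cells. At least 2 pan-leukocyte genes had UMIs in 26 gated cells.

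**Figure D1:**
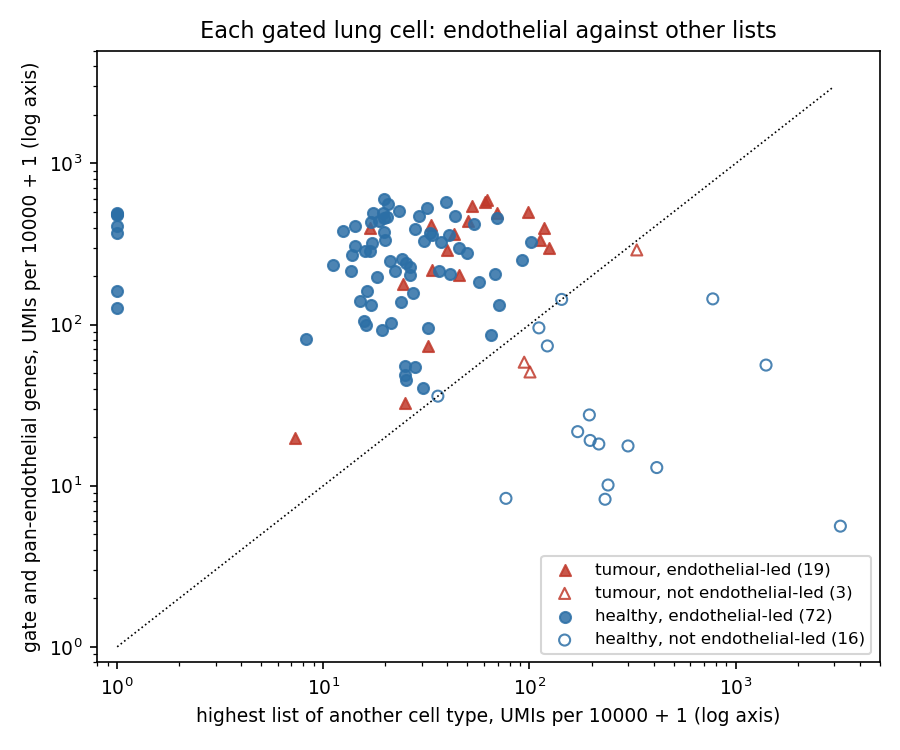
Each point is 1 gated lung cell; the vertical axis gives UMIs of the gate and pan-endothelial genes per 10000 and the horizontal axis the highest of the 12 lists of other cell types, both plus 1 on log axes, with triangles for tumour-bearing and circles for healthy lungs. The 91 filled symbols lie above the dotted line of equality and the 19 open ones on or below it.

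The cells from healthy lung at day 7 went furthest from the label. Of 6 gated cells there, 4 were endothelial-led, and 2 cells held 82.8% of their UMIs. The deeper of these had 13019 UMIs, of which 4081 were Scgb1a1, the secretoglobin of airway club cells, out of 4121 Scgb1a1 UMIs in all gated cells. The other, with 6636 UMIs, had 130 UMIs of the fibroblast list. Summed gate genes reached 8.00 UMIs per 10000 in this library, and pan-endothelial genes 12.2 per 10000, against 6.44 per 10000 in its other cells. Values from that library are therefore given below but carry little endothelial signal.

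Because the gate picked cells on these genes, their levels describe the cells and are no test. Summed over the gate, UMIs per 10000 were 22.7, 169 and 153 in gated cells of tumour-bearing lungs at days 7, 14 and 21, and 8.00, 88.5 and 99.2 in those of healthy lungs. Other kept cells had between 0.0495 and 1.42 per 10000. At the edge of the gate, the 37 cells with exactly 2 gate genes had 23.6 pan-endothelial UMIs per 10000 and 20 of them were endothelial-led, whereas the 234 cells with 1 gate gene just outside had 9.73 per 10000 and 28 of them were endothelial-led. The 13 cells with 3 gate genes had 66.1 per 10000, and the 19 cells with all 7 had 176.

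Among the 7 genes Calcrl was found in the most gated cells and Kdr in the fewest. Calcrl had UMIs in 81 of 110 cells, Cldn5 in 76, Tmem100 in 73, Cdh5 in 69, Egfl7 in 67, Ramp2 in 52 and Kdr in 42. Tmem100 had 1, 11 and 55 UMIs in gated cells of tumour-bearing lungs at days 7, 14 and 21, and 1, 223 and 33 in those of healthy lungs. Calcrl had 2, 42 and 45 UMIs in tumour-bearing and 2, 198 and 21 in healthy lungs in the same order. Both genes were thus carried by the libraries of days 14 and 21. Kdr had 0, 9 and 2 UMIs in tumour-bearing lungs and 7, 85 and 2 in healthy lungs, so that the day 21 libraries of either status gave almost none.

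Per UMI sequenced, the 7 genes were not in one fixed proportion. In tumour-bearing lung at day 21 Tmem100 stood at 31.8 UMIs per 10000 and Kdr at 1.16. In healthy lung at day 14 they stood at 19.3 and 7.36, and in healthy lung at day 21 at 38.5 and 2.33. Ramp2 had 25.4 UMIs per 10000 at day 21 in tumour-bearing lung, against 2.33 in healthy lung of that day, where 2 of 16 cells had a UMI of it. The median depth of gated cells was 897 UMIs in the tumour-bearing and 408 UMIs in the healthy library.

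**Figure D2:**
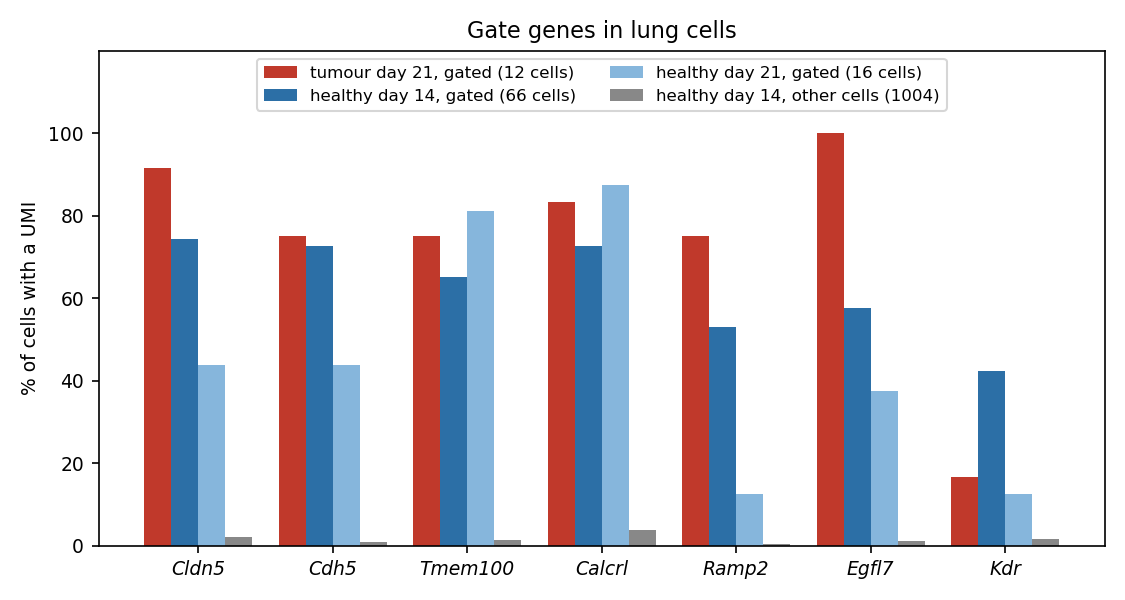
Bars give the share of cells with at least 1 UMI of each gate gene (percent, from 0) in gated cells of tumour-bearing lung at day 21, healthy lung at day 14 and healthy lung at day 21, and in the other kept cells of healthy lung at day 14. Calcrl was present in 83.3%, 72.7% and 87.5% of gated cells, and Kdr in 16.7%, 42.4% and 12.5%.

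RNA set free from broken cells can place UMIs in any droplet, so neutrophils served as a background for endothelial genes that the gate did not use. In healthy lung at day 14 Ecscr had a UMI in 39.4% of the 66 gated cells, Tspan7 in 43.9%, Pecam1 in 62.1%, Car4 in 33 of the 66 and Gpihbp1 in 28.8%. Of 70 ungated cells with at least 4 neutrophil genes 2.86% had a UMI of Pecam1 and 0 had one of the other 4 genes (median depths 1111.5 and 534 UMIs). In tumour-bearing lung at day 21 the shares among 12 gated cells were 41.7% for Ecscr, 66.7% for Car4 and 75% for Gpihbp1, and 6 of the 12 cells had Tspan7 and 6 had Pecam1. Among 2153 ungated neutrophil-gene cells they were 0 for Ecscr, 0.0464% for Tspan7 and Gpihbp1, 1.02% for Pecam1 and 0.232% for Car4 (median depths 897 and 1155 UMIs). The gate tends to select cells with such genes, and 3 gated cells of tumour-bearing lung at day 21 and 2 of healthy lung at day 14 had at least 4 neutrophil genes themselves. In the other direction, neutrophil transcripts were present in gated cells: S100a8 and S100a9, the calprotectin genes, had 43 and 96 UMIs in the 12 gated cells of tumour-bearing lung at day 21, 75 of the S100a9 UMIs in 1 cell.

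Genes outside the gate gave the cells a broad endothelial profile. The 30 pan-endothelial genes summed to 32.7, 181 and 195 UMIs per 10000 in gated cells of tumour-bearing lungs at days 7, 14 and 21, against 4.48, 2.78 and 1.12 in other cells of the same libraries. In healthy lungs they summed to 12.2, 109 and 135 in gated cells, against 6.44, 8.80 and 3.61 in other cells. The log2 ratio averaged 5.44 ± 1.92 (SD, n = 3) over the libraries with at least 10 gated cells. Taken gene by gene, 29 of the 30 were at least 2-fold higher per UMI in gated cells, against the 25.5% given above for all genes. The median log2 ratio was 5.41 for the list and -0.17 for all genes, with a pseudocount of 1 CPM. The gate selects for such genes, so nothing is read from these counts.

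Gpr116 (now Adgrf5), an adhesion receptor of lung capillaries and epithelium, had 2, 20 and 81 UMIs in gated cells of tumour-bearing lungs and 5, 149 and 16 in those of healthy lungs. Pecam1, the junction molecule CD31, had 0, 17 and 41 in tumour-bearing and 1, 112 and 5 in healthy lungs. Sdpr (now Cavin2), a protein of caveolae, had 7, 15 and 21 in tumour-bearing and 9, 266 and 23 in healthy lungs. All 3 genes were seen in the gated cells of every library except for Pecam1 in tumour-bearing lung at day 7. Among endothelial transcription factors Epas1, the hypoxia-inducible factor of endothelium, had 138 UMIs in 54 cells, Erg 60 in 37 cells and Foxf1, needed for lung vessel formation, 34 in 20 cells. Of 19 such factors with a UMI, 15 were at least 2-fold higher in gated cells, against 25.5% of all genes. The gate selects for endothelial genes here too.

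Ranked by their ratio in healthy lungs, the 25 leading genes outside the gate mixed pan-endothelial and capillary genes. The ratio of summed CPM had a log2 of 7.05 for Ecscr, an endothelial surface regulator of chemotaxis, and of 4.70 for Fmo2, a lung monooxygenase, which closed the list. Of the 62 Fmo2 UMIs in healthy gated cells 29 were from day 7, 24 of these in 1 cell, and with endothelial-led cells Fmo2 no longer reached 50 UMIs. In all, 167 genes had at least 50 UMIs in healthy gated cells and were higher there in each of the 3 libraries with at least 10 gated cells. Cyp4b1, a cytochrome P450 of lung, followed at 6.24, Tspan18 at 6.22, Tspan7 at 6.22 and Stmn2, better known from neurons, at 5.85. Tbx3, a T-box factor of aerocytes, came next at 5.78, ahead of Epas1 at 5.69 and Clec14a, an endothelial lectin, at 5.65. Clic5, Sept4, Ly6a, Gng11, Kitl, Clec1a, Sdpr, Acvrl1, Fermt2, Pmp22, Hpgd, Igfbp7, Ushbp1, Emp2, Ednrb and Afap1l1 filled the ranks between. With endothelial-led cells alone, 23 of the 25 stayed among the first 25.

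Stmn2 was found in 39 gated cells, at 9.83 UMIs per 10000 (5.73 to 15.7, exact Poisson interval) in tumour-bearing lung at day 21. In healthy lungs at days 14 and 21 it was at 5.98 (4.65 to 7.56) and 4.67 (1.27 to 12.0), with overlapping intervals. Of its 17 UMIs in the tumour-bearing library 8 were in 1 cell. Igfbp7, a secreted protein of vessel walls, was at 33.0 (24.97 to 42.7, exact Poisson interval) in gated cells of tumour-bearing lung at day 21, against 19.7 (17.3 to 22.5) and 8.17 (3.28 to 16.8) in those of healthy lungs at days 14 and 21. Ly6a, the surface antigen Sca-1, was at 31.8 (23.96 to 41.4) in tumour-bearing lung at day 21, against 9.01 (7.36 to 10.9) and 14.0 (7.24 to 24.5) in healthy lungs at days 14 and 21. Each of these genes was found in gated cells of both statuses.

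The receptors and ligands of vessel growth were read at very different levels. Of 16 genes of the VEGF, angiopoietin and apelin systems, Kdr of the gate included, 16 were at least 2-fold higher per UMI in gated than in other cells. Among all genes with a UMI this share was 25.5%, and the gate selects for endothelial genes, so nothing is read from the count. Flt1, a VEGF receptor that also acts as a decoy, had 94 UMIs in 45 gated cells, and 24 cells held UMIs of both Kdr and Flt1. Nrp1, their co-receptor, had 150 UMIs, and Tek, the receptor of angiopoietins, had 46. Of the ligands, Vegfa had 81 UMIs in gated cells, Angpt1 21, Angpt2 4 and Vegfc 2. Apln had 11 UMIs in 11 cells and its receptor Aplnr 4 UMIs in 3 cells, with 1 cell holding both.

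Transcripts for the adrenomedullin receptor were mostly of 1 pair of subunits, Calcrl and Ramp2, both of them gate genes. They shared 45 cells, while 22 cells had neither. The gate favours cells that hold both, so nothing is read from their pairing. The alternative partners Ramp1 and Ramp3 had 2 and 3 UMIs in gated cells, and the related receptor Calcr had 0. The ligands were at 1 UMI for Adm and 0 for Calca, and a 0 among 180292 UMIs allows up to 3 (one-sided 95% limit, counting error only).

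BMP signalling genes of endothelium included Acvrl1 and Eng, receptor and co-receptor for circulating BMPs. Acvrl1 had 1, 10 and 10 UMIs in gated cells of tumour-bearing lungs and 1, 55 and 8 in those of healthy lungs; Eng had 1, 3 and 12 in tumour-bearing and 0, 34 and 1 in healthy lungs. Tmem100 and Acvrl1 were found together in 40 cells. Of 15 genes in the list, Tmem100 of the gate included, 11 were at least 2-fold higher in gated cells and 2 at least 2-fold lower. Among the higher genes was the target Id3 with 57 UMIs. One of the lower genes was Id2, with 15 UMIs in gated and 2759 in other cells. Of 17 junction genes, Cldn5 and Cdh5 of the gate included, 14 were at least 2-fold higher and 2 lower. Among all genes these shares were 25.5% and 46.6%, and the gate selects for endothelial genes.

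Most haemostasis and matrix genes were at least 2-fold higher in gated cells, and a smaller part of the lipid uptake genes was. Cd36, the fatty acid transporter, had 3, 24 and 70 UMIs in gated cells of tumour-bearing lungs and 3, 178 and 10 in those of healthy lungs. Of 10 lipid genes 4 were at least 2-fold higher in gated cells. Fabp4, a marker of many capillary beds, had 1 UMI. Thbd, the thrombomodulin gene, had 86 UMIs and Vwf, von Willebrand factor of larger vessels, had 9. In the haemostasis and tone list 13 of 16 genes were at least 2-fold higher. Col4a1 and Col4a2, the basement membrane collagens, had 78 and 65 UMIs, and 13 of 16 matrix genes were at least 2-fold higher. Among all genes with a UMI this share was 25.5%, and the gate selects for endothelial genes.

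Immune-facing genes divided by class. MHC class II genes were at least 2-fold lower in 6 of 7 cases and 0 were 2-fold higher, with 14.3 UMIs per 10000 in gated and 76.2 in other cells of healthy lung at day 14; in tumour-bearing lung at day 21 the summed list was at 1.74 in gated and 0.880 in other cells. Cd74, the invariant chain, had 107 UMIs in gated cells, of which 100 were in healthy lung at day 14, the library of the 7 macrophage-led cells. Cells with at least 2 class II genes were 9 of 91 (9.89%) among the endothelial-led and 16 of 110 (14.5%) among all gated cells. Among other cells they were 974 of 5995 (16.2%), a share near that of all gated cells, at depths that were not matched. MHC class I genes did not pass 2-fold in either direction in any of 9 cases. By library the class I list was at 27.7, 104 and 67.7 UMIs per 10000 in gated cells of tumour-bearing lungs at days 7, 14 and 21, against 63.3, 62.0 and 24.6 in their other cells. In healthy lungs it was at 15.2, 76.1 and 94.5 in gated cells, against 69.4, 76.8 and 60.1 in other cells, so that its direction differed between libraries. Of 16 cell cycle genes 1 was at least 2-fold higher (Stmn1) and 11 were lower; Mki67 had 6 UMIs and Top2a 2. Cells with UMIs of at least 2 cell cycle genes were nonetheless 28 of 110 gated and 21 of 91 endothelial-led cells, against 709 of 5995 other cells, at depths that were not matched. Among 16 immediate early genes, which dissociation can induce, 4 were at least 2-fold higher and 8 lower, shares near those of all genes (25.5% and 46.6%). The list was at 66.7, 38.4 and 99.5 UMIs per 10000 in gated cells of tumour-bearing lungs at days 7, 14 and 21, against 126, 150 and 143 in their other cells. In healthy lungs it was at 113, 49.6 and 56.02 in gated cells, against 75.3, 58.4 and 57.0 in other cells.

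Vessel type was read from marker lists, a cell counting for a list where at least 2 of its genes had a UMI. Aerocyte genes met this in 66 of 110 gated cells (60.0%, exact binomial interval 50.2% to 69.2%) and general capillary genes in 65 (59.1%, 49.3% to 68.4%). Arterial genes did so in 22 cells, venous genes in 10 and lymphatic genes in 3. Among the 5995 other kept lung cells 81, 85, 15, 140 and 7 met the same lists in that order. Capillary lists therefore covered far more gated cells than those of larger vessels, although lists differ in length and in how high their genes run.

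Arterial markers were sparse. Gja4, a gap junction gene, and Hey1, a Notch target, had 8 UMIs each, and Dll4, the arterial Notch ligand, had 3; all 3 genes had 0 UMIs in the 5995 other cells. Efnb2 had 41 UMIs, 22 of them in 5 of 12 gated cells of tumour-bearing lung at day 21. Gja5 had 0. Of the venous genes Slc6a2 had 8 UMIs, 6 of them in 1 cell of tumour-bearing lung at day 21, Nr2f2 had 22, 21 of them in healthy lung at day 14, and Selp had 1. Bmx, Bst1 and Selp, though named for arteries or veins, had 1178, 1192 and 569 UMIs in other cells and mark no vessel here.

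Lyve1, a hyaluronan receptor used as a lymphatic marker, was common without its lymphatic partners. It had UMIs in 31 gated cells, 8, 13 and 43 in tumour-bearing lungs at days 7, 14 and 21 and 0, 32 and 7 in healthy lungs. Prox1, the factor that defines lymphatic fate, had 0 UMIs in gated cells. Flt4 had 6, Mmrn1 1 and Pdpn 1. Ccl21a, the chemokine of lymphatic vessels, had 11 UMIs, all in 1 cell of healthy lung at day 21. The 103 Lyve1 UMIs thus stood beside 3 gated cells with 2 or more lymphatic genes.

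To separate the capillary kinds, UMIs of Car4, Ednrb and Emp2 were set against those of Gpihbp1, Plvap and Aplnr in each cell. The aerocyte side held 58 cells, the general capillary side 22, and 30 were on neither, 25 of them with no UMI of the 6 genes. UMIs of both sides were found in 33 cells, and in 25 cells the sides differed by 1 UMI, so the classes are ranges of a continuous score. In tumour-bearing lungs the aerocyte and general capillary sides held 2 and 1 cells at day 7, 2 and 2 at day 14, and 4 and 6 at day 21. In healthy lungs they held 0 and 0, 41 and 10, and 9 and 3 cells. The aerocyte share of sided cells was 40.0% (exact binomial interval 12.2% to 73.8%) in tumour-bearing lung at day 21, against 75.0% (42.8% to 94.5%) in healthy lung at that day and 80.4% (66.9% to 90.2%) in healthy lung at day 14. The intervals, which cover counting error only, overlap, and 1 library per status and day gives no test.

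**Figure D3:**
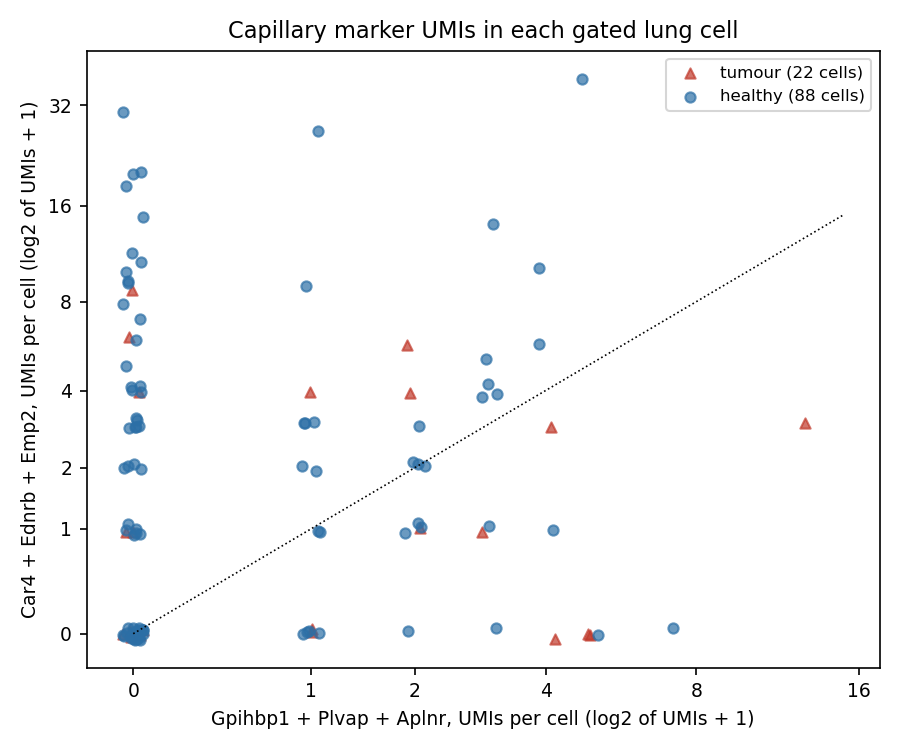
Each point is 1 gated lung cell; the vertical axis gives its UMIs of Car4, Ednrb and Emp2 together and the horizontal axis those of Gpihbp1, Plvap and Aplnr, on a log2 scale of UMIs plus 1 with a small random shift. Triangles are the 22 cells of tumour-bearing and circles the 88 cells of healthy lungs; 58 cells lie above the dotted line of equality, 22 below it and 30 on it.

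Only healthy lung at day 14 had at least 10 cells on each side, so the sides were compared there by values without a test. Its 41 aerocyte-side cells had a median of 1491 UMIs and its 10 general capillary cells 621. Genes that the split did not use followed it in part. The 8 other aerocyte genes summed to 37.0 UMIs per 10000 on the aerocyte side and 17.6 on the general capillary side, a log2 ratio of 1.07 (interval 0.35 to 1.90, counting error only). The 9 other general capillary genes summed to 31.3 on the aerocyte side and 50.6 on the general capillary side, a log2 ratio of -0.69 (-1.15 to -0.21). All 8 of the aerocyte genes were higher on the aerocyte side, where 73.2% of all 9376 genes with a UMI and 55.7% of the 829 genes with at least 20 UMIs were. Of the general capillary genes 6 of 9 were higher on their side, against 26.8% and 44.3% of those same gene sets.

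Of the 8 aerocyte genes not used for the split, Kitl, Tbx3 and Akap5 had the most UMIs. Kitl, the ligand of the Kit receptor, had 125 UMIs on the aerocyte side (14.6 per 10000) and 7 on the general capillary side (7.70 per 10000). Tbx3 had 81 (9.46 per 10000) and 3 (3.30 per 10000). Their ratios were 1.90 (0.89 to 4.81) and 2.87 (0.95 to 14.2), with intervals that include 1. On the other side Cxcl12, a chemokine, had 5 UMIs (0.58 per 10000) on the aerocyte side and 8 (8.80 per 10000) on the general capillary side, a ratio of 0.07 (0.02 to 0.23). Tek had 17 and 6 UMIs, a ratio of 0.30 (0.11 to 0.93), and Kit, the receptor that answers Kitl, had 10 and 3, a ratio of 0.35 (0.09 to 2.00). Hpgd and Sema3c, of the same list, had ratios of 1.50 (0.70 to 3.83) and 1.10 (0.44 to 3.54). Cxcl12, also a member of the arterial list, stood the other way in tumour-bearing lung at day 21. Its 5 UMIs on the aerocyte side there (12.1 per 10000) were in 1 cell, against 2 UMIs (1.70 per 10000) on the other side.

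**Figure D4:**
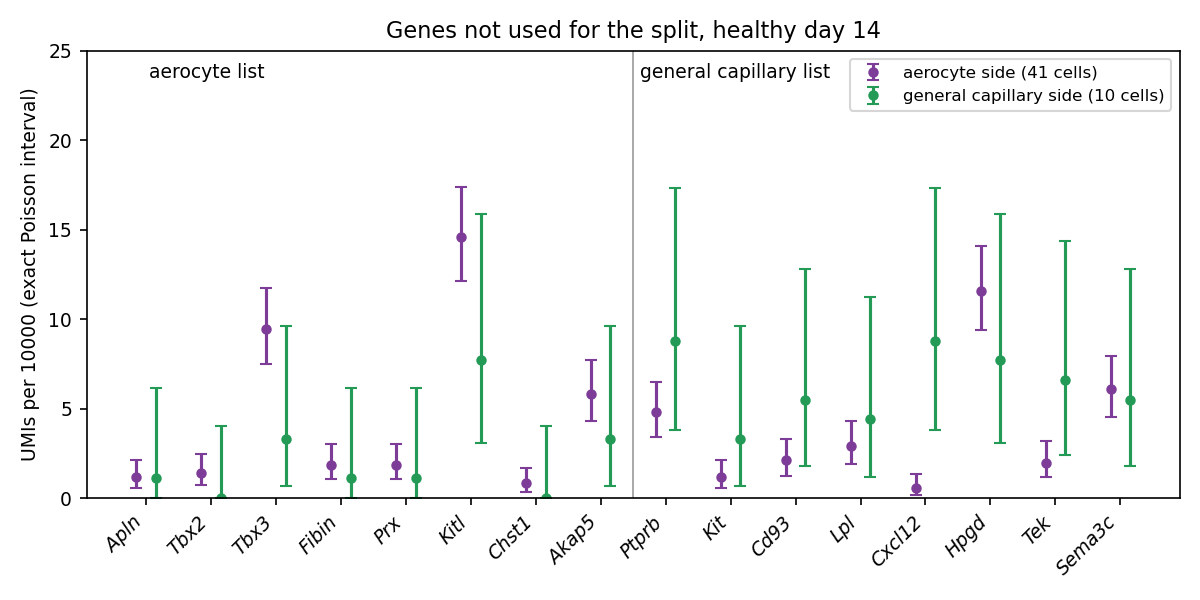
Points give UMIs per 10000 of each gene that the split did not use, in the 41 cells of the aerocyte side and the 10 cells of the general capillary side of healthy lung at day 14; bars are exact Poisson intervals for counting error. The 8 genes on the left are of the aerocyte list and the 8 on the right of the general capillary list; Glp1r, with 1 UMI, is not drawn. Only for Cxcl12 do the bars of the sides stand clearly apart.

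Of genes outside these lists, those with the largest gap towards the aerocyte side were Lyz2, Ctss and Ccl6, genes of macrophages. Lyz2 had 391 UMIs on the aerocyte side and 2 on the general capillary side, 229 of the Lyz2 UMIs of this library being in 1 macrophage-led cell. Cells that were not endothelial-led made up 7 of the 58 aerocyte-side cells and 2 of the 22 general capillary cells over all libraries. With endothelial-led cells alone the log2 ratios of the lists were 1.35 (0.63 to 2.18) and -0.57 (-1.03 to -0.08). Towards the general capillary side stood Pltp, the phospholipid transfer protein, with 23 UMIs on the aerocyte side (2.69 per 10000) and 16 on the general capillary side (17.6 per 10000). Sparcl1 had 39 and 16 UMIs, Cd200, a surface molecule that restrains myeloid cells, 19 and 9, and Foxp1 33 and 15, on sides of 85659 and 9096 UMIs. Pltp and Cd200 stood the other way at day 21, from 5 UMIs or fewer on a side. In tumour-bearing lung each was at 9.72 per 10000 on the aerocyte side and 2.55 on the other. In healthy lung of that day Pltp was at 9.85 against 0, and Cd200 and Sparcl1 at 3.94 against 0. Foxp1 kept its direction in both day 21 libraries, and Sparcl1 in the tumour-bearing one.

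The day 21 libraries had few cells and UMIs on each side. In tumour-bearing lung the 8 aerocyte genes stood at 41.3 UMIs per 10000 on the aerocyte side and 20.4 on the general capillary side, and the 9 general capillary genes at 99.6 and 154 (17, 24, 41 and 181 UMIs in that order). In healthy lung of that day the values were 35.5 and 7.61 for the aerocyte genes, and 37.4 and 53.3 for the general capillary genes, from 18, 1, 19 and 7 UMIs on sides of 9 and 3 cells. Lyve1 in tumour-bearing lung at day 21 had 0 UMIs on the aerocyte side and 43 on the general capillary side; in healthy lung at day 14 it had 22 UMIs (2.57 per 10000) and 4 UMIs (4.40 per 10000).

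By tumour status the gated cells made up a smaller share of kept cells in tumour-bearing lungs. The share was 0.431%, 0.644% and 0.510% in tumour-bearing lungs at days 7, 14 and 21, and 1.02%, 6.17% and 6.81% in healthy lungs. All 3 tumour-bearing libraries lay below all 3 healthy ones. The means were 0.528% ± 0.108 in tumour-bearing and 4.67% ± 3.17 in healthy lungs (SD, n = 3 each), a difference of -4.14 percentage points. The 2-sided exact permutation test of 3 against 3 libraries gave p = 0.1, the smallest it can give, so the difference did not pass 0.05 and could not have. With 3 or more gate genes required the difference was -2.69 points with an exact permutation p of 0.3. Fewer endothelial cells and more cells of other kinds cannot be told apart in a share.

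Cells with neutrophil genes differed between the statuses in the direction opposite to the share of gated cells. Cells with UMIs of at least 4 neutrophil genes were 48.0%, 73.3% and 91.6% of kept cells in tumour-bearing lungs at days 7, 14 and 21, and 10.7%, 6.73% and 0.851% in healthy lungs. With ungated cells of this kind left out of the denominator, a choice made after the values were seen, the share of the gate was 0.828%, 2.40% and 6.00% in tumour-bearing and 1.15%, 6.60% and 6.84% in healthy lungs. The difference of the means was then -1.78 points with an exact permutation p of 0.5. With ungated cells of at least 2 neutrophil genes left out, it turned to 6.09 points with an exact permutation p of 0.3; such cells were 96.9% of those kept in tumour-bearing lung at days 14 and 21 alike, and included 6 of 6 and 8 of 12 gated cells. The direction of the share therefore rested on what it was a share of. If shared barcodes were left in every library, the shares were 0.409%, 0.628% and 0.354% in tumour-bearing and 0.797%, 5.93% and 1.65% in healthy lungs.

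**Figure D5:**
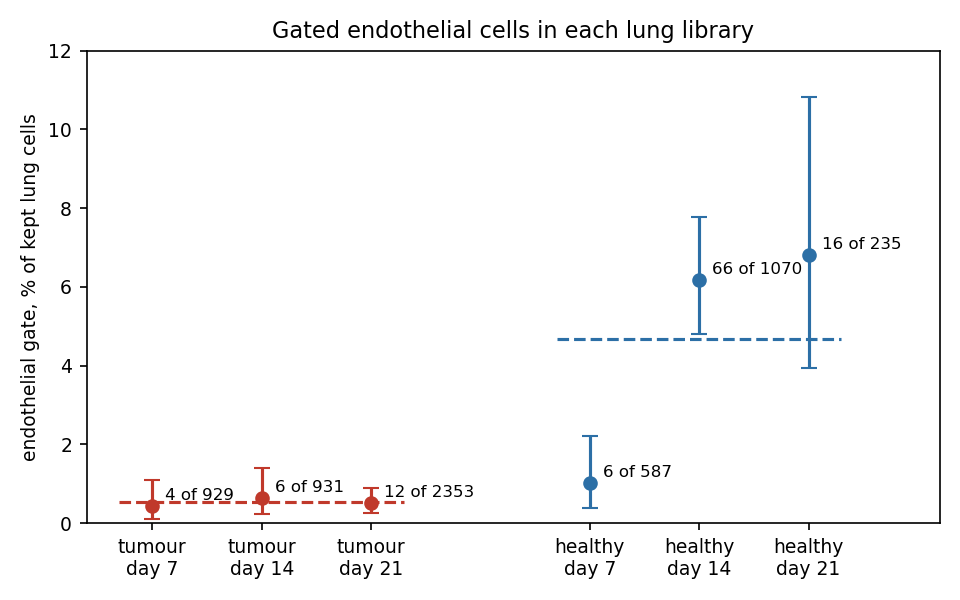
Points give gated cells as a percent of kept cells in each lung library, with exact binomial intervals for counting error, counts beside each point and dashed lines at the group means of 0.528% (tumour-bearing) and 4.67% (healthy). The tumour-bearing libraries lie between 0.431% and 0.644% and the healthy ones between 1.02% and 6.81%.

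Within gated cells, status can be read only as values, since 1 tumour-bearing library (day 21, 12 cells) had at least 10 of them and 2 of its cells held 50.8% of their UMIs. There the pan-endothelial genes stood at 195 UMIs per 10000, against 135 in healthy lung of the same day, a log2 ratio of 0.53 (0.22 to 0.85, counting error only). Of 12 general capillary genes 9 stood above both healthy libraries, 2 of them with intervals clear of both, and Plvap stood below both, at 0.578 (0.0146 to 3.22) against 2.69 and 8.17. Of 11 aerocyte genes 1 stood above both and 6 below both, 2 of these with intervals clear of both. No such share over all genes was counted, so nothing about status is read from these counts. Hpgd, which breaks down prostaglandins, was at 47.4 UMIs per 10000 (37.7 to 58.9) in tumour-bearing lung at day 21, against 9.53 (7.83 to 11.5) and 9.34 (4.03 to 18.4) in healthy lungs at days 14 and 21. Of its 82 UMIs there 39 were in 1 cell, and 11 of 12 cells had a UMI. Ace, the angiotensin-converting enzyme of lung capillaries, was at 27.8 (20.5 to 36.8), against 2.95 (2.04 to 4.12) and 1.17 (0.0295 to 6.50), with 22 of 48 UMIs in 1 cell.

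Ptprb, the endothelial phosphatase that acts on Tek, was at 34.1 UMIs per 10000 (26.0 to 44.0) in tumour-bearing lung at day 21, against 5.11 (3.89 to 6.59) and 10.5 (4.80 to 19.9) in healthy lungs at days 14 and 21. It was found in 10 of 12 cells, against 24 of 66 and 7 of 16, and 23 of its 59 UMIs in the tumour-bearing library were in 1 cell. Gpihbp1, which anchors lipoprotein lipase in capillaries, was at 18.5 (12.7 to 26.1), with 12 of 32 UMIs in 1 cell, against 2.43 (1.61 to 3.51) and 10.5 (4.80 to 19.9). Of the aerocyte genes Ednrb, the endothelin receptor, was at 0.578 (0.0146 to 3.22), against 5.80 (4.50 to 7.37) and 4.67 (1.27 to 12.0). In the 6 gated cells of tumour-bearing lung at day 14, however, Ednrb was at 9.60 (3.86 to 19.8), from 7 UMIs. Car4, a carbonic anhydrase, was at 9.83 (5.73 to 15.7) in tumour-bearing lung at day 21, against 10.7 (8.93 to 12.8) and 18.7 (10.7 to 30.3) in healthy lungs at days 14 and 21. Kitl, at 8.10 (4.43 to 13.6), 11.7 (9.80 to 13.8) and 9.34 (4.03 to 18.4) in the same order, had overlapping intervals. The mix of sides in tumour-bearing lung at day 21, 4 aerocyte to 6 general capillary cells, stands beside the values of that library, and its part in them was not tested.

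In the implants the same gate found other cells. It took 46 of 7082 kept scaffold cells and 6 of 6574 kept spleen cells, but 6 of the 46 scaffold cells were endothelial-led and 29 were led by fibroblast genes, against 91 of 110 and 1 of 110 in lung. Gated lung cells had 13.1 UMIs of fibroblast genes per 10000, and gated scaffold cells 172. In healthy mice at day 21 the pan-endothelial genes stood at 135 UMIs per 10000 in 16 lung cells, against 19.2 in 23 scaffold cells, a log2 ratio of 2.82 (2.47 to 3.17). With endothelial-led cells alone, 15 in lung and 3 in scaffold, the ratio was -0.12 (-0.62 to 0.40).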

How the data were processed

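Drop-seq libraries of lung, scaffold and spleen were measured, 1 per tissue, status and day. Each deposited table holds unnormalized UMI counts by gene and barcode, and the tables together name 22049 genes. The submitters' processing notes name mm10 and Seurat version 2; aligner, annotation and cell calling: not given in the sources used here. Barcodes with at least 200 genes and under 20% mitochondrial UMIs were kept, and a barcode shared within a day stayed where its UMIs reached 5 times those of the runner-up. The depth of a library was 623042 to 4283593 UMIs in lung. UMIs were summed over gated and other cells of a library and given per 10000 (Python 3.11.15, numpy 2.4.6, scipy 1.17.1). Intervals are exact (Clopper-Pearson or Poisson, 95%) and cover counting error only. Shares were compared with a 2-sided exact permutation test over libraries, whose p-values measure the spread between libraries, which may be technical.

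The members, the 35 gene lists and the named genes were chosen with earlier results of these data known. Named genes were the gate genes, list members, and the 25 genes with the highest ratio in healthy lungs among those with at least 50 gated UMIs. Genes named by their gap between the capillary sides (the 10 largest in each direction with at least 20 UMIs), the endothelial-led class, its form without the gate genes and the denominator without cells of 4 neutrophil genes were chosen after values were seen. Of 359 list genes 350 were found under their symbol, 7 under a former one and 2 not at all. Gene-level count models had been planned for comparisons between statuses, sides and tissues, but needed at least 2 libraries with 10 cells in each group, which were not there, so values stand without a test. Alternatives tried were stricter gates and filters, shared barcodes kept, other splits, other denominators and single libraries left out.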

Additional observations from a re-analysis of the deposited data

How the results depend on the processing

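The lower share of gated cells in tumour-bearing lungs (-4.14 points) kept its direction under 14 alternatives, from -6.59 to -1.78 points, and turned to 6.09 points when cells of 2 or more neutrophil genes left the denominator; the cause was not tested beyond the neutrophil shares given. Leaving out 1 library at a time gave -5.96 to -3.07 points. With day as a replicate block (tumour-bearing and healthy lungs paired by day) the difference was -4.14 points and the exact sign-flip p was 0.25, the smallest 3 pairs can give; whether the days pair the libraries was not tested, since each status and day has 1 library. The log2 pan-endothelial ratio of gated over other cells (5.44) ranged from 4.43 to 6.34 without 1 library. The general capillary genes had a log2 ratio between the sides of -1.37 in place of -0.69 when cells with UMIs of both sides were left out (29 and 5 cells), and the ratio of lung over scaffold was -0.12 in endothelial-led cells. Otherwise 7 alternatives gave 1.07 to 1.51 for the aerocyte genes between the sides, 6 gave -1.09 to -0.53 for the general capillary genes, 5 gave 0.36 to 0.78 for tumour-bearing over healthy gated cells and 4 gave 2.57 to 2.96 for lung over scaffold. Requiring 400 genes left 1 library for the pan-endothelial ratio (3.81). Not run were the planned gene-level models with their other normalizations, filters and blocks, and leaving out a library where 1 library gave the value. Depth limits detection: medians of 408 to 1748.5 UMIs per gated cell leave most genes unseen in most cells.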

Other observations

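Hopx, listed with the alveolar epithelium because alveolar type I cells express it, was frequent in gated cells. It had 0, 1 and 44 UMIs in gated cells of tumour-bearing lungs at days 7, 14 and 21, and 1, 80 and 15 in those of healthy lungs, 141 of the 263 UMIs of its list. At day 21 it was found in 8 of 12 gated cells of tumour-bearing lung and 8 of 16 of healthy lung. Sftpc, the surfactant gene of type II cells, had 25 UMIs.

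Jun, an immediate early gene, was at 20.1, 15.1 and 17.9 UMIs per 10000 in gated cells of tumour-bearing lungs at days 7, 14 and 21, against 3.89, 5.96 and 10.3 in their other cells. In healthy lungs it was at 32.8, 15.6 and 18.7 in gated cells, against 4.69, 5.53 and 4.46 in other cells, and so was higher in gated cells of all 6 libraries. Fos was lower in gated cells of 5 libraries, for example at 13.3 against 48.7 in tumour-bearing lung at day 21, but not in healthy lung at day 7, with 19.4 in gated and 17.7 in other cells.

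Of the interferon list, 7 of 16 genes were at least 2-fold higher in gated cells and 4 lower. Among all genes with a UMI these shares were 25.5% and 46.6%. Ly6e had 1, 10 and 9 UMIs in gated cells of tumour-bearing lungs and 2, 75 and 3 in those of healthy lungs, and Gbp4 had 1, 1 and 0 in tumour-bearing and 1, 31 and 1 in healthy lungs.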
